A study of Rattus norvegicus with 8 samples.

Results

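Chemokines are small secreted proteins that draw leukocytes along a gradient by binding G protein-coupled receptors, and inflammatory cytokines such as interleukin 6 act on many cell types through receptors of their own. In liver, both are released by parenchymal and stromal cells as well as by macrophages when these sense microbial products, viral RNA, interleukin 1 or tumour necrosis factor. Their genes are classical targets of NF-kB and, for some members, of interferon regulatory factors, and their messengers are short-lived. Described here are 10 such genes of the rat: the CC chemokines Ccl2, Ccl5, Ccl7 and Ccl20, the CXC chemokines Cxcl1, Cxcl2 and Cxcl10, the cytokines Il6 and Lif, and the macrophage growth factor Csf1. They were taken by the gene name on the array, which gave 12 of 41012 probes that are not controls, with 2 probes each for Ccl7 and Csf1 and 1 for each other gene.

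The levels come from BRL-3A cells, an established line from rat liver, harvested 48 h after transfection with a cationic lipid reagent. The 4 samples of the siRNA group received an siRNA directed at the long noncoding RNA lnc19959.2, and the 4 samples of the control group carry the transfection label NC, which the labels do not spell out. Both groups were thus transfected cells of the same line at the same time, and the study was about genes of triglyceride metabolism. Each RNA sample was labelled with Cy3 and hybridised to its own Agilent array. Nothing in the labels says that the samples of a group were separate cultures, so the p-values reflect only how far these arrays differed from each other, and that spread could be technical.

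The 75th percentile of spot intensity was 246 to 261 on NC arrays and 289 to 323 on siRNA arrays, and 57.3% to 64.1% of spots on NC arrays and 55.4% to 59.1% on siRNA arrays were marked by the scanner software as well above background. All NC arrays shared 1 slide and 1 scan and all siRNA arrays another, so that the group cannot be told apart from the slide or the scan. No probe was named for lnc19959.2, and the knockdown was not checked here. Of 11 hepatocyte markers 7 were above background on no array, among them Alb and Ttr, whereas 7 of 10 fibroblast and stellate cell markers were above it on at least 3 arrays of each group. Each group has 4 arrays, a number that limits precision. Levels below are log2 intensities relative to the 75th percentile of the same array, so that 0 is the level of that percentile, and they are compared between arrays but not between genes.

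Of the 10 genes 8 were lower in the siRNA cells, 0 were higher and 2, Ccl20 and Csf1, did not pass the test (limma, adjusted p under 0.05 over all 24853 probes tested). In the same comparison 28.9% of all 10861 tested genes were lower and 36.1% higher. Counted by probe, 9 of the 12 were lower, against 31.9% lower and 29.7% higher among all tested probes. The 8 called genes fell by 0.87 to 2.39 on the log2 scale, and 7 of them by at least 2-fold, a size reached by 8.78% of all tested genes. The median difference of the 10 genes was -1.24, and that of all tested genes 0.04. In 7 of the 10 every siRNA array lay below every NC array, which was so for 27.6% of all tested genes. In these RNA samples of whole cultures, fewer cells making a transcript and less of it in each cell cannot be told apart.

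The upstream sequence of 6 of the 10 genes was in the RefSeq promoter table of the GRCr8 assembly (those of Ccl2, Ccl5, Lif and Csf1 were not used here). The 250 bases before each start were searched on both strands for 5 motifs. The kappaB decamer consensus, the usual description of an NF-kB site, matched in 6 of these 6 genes and in 6.33% of all 33469 windows of that length. The stretches nearest the start are shown for 4 genes, with the kappaB matches in capitals, because this motif was found in the called genes Cxcl1, Cxcl2 and Il6 and in the uncalled gene Ccl20 alike.
Cxcl1, GRCr8 chr14:17479322-17479441, minus strand: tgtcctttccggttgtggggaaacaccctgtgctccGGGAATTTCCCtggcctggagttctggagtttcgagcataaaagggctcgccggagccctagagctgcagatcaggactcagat
Cxcl2, GRCr8 chr14:17467256-17467375, minus strand: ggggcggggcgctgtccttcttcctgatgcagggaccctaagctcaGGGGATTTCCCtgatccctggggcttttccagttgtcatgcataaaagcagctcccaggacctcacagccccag
Il6, GRCr8 chr4:5894576-5894695, minus strand: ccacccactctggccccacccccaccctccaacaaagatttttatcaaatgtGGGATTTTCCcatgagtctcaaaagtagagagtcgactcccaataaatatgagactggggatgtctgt
Ccl20, GRCr8 chr9:91837039-91837158, plus strand: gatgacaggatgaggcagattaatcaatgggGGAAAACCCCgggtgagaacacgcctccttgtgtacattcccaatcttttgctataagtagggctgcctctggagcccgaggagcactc
In Cxcl1 and Cxcl2 a match and a second one shifted by 1 base overlap, and the capitals run over both. No match overlapped one of another motif.

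Cxcl10 is shown over the whole window because it held kappaB matches in separate places and was the only member of the 6 with a match to the interferon-stimulated response element (GAAA, any 2 bases, GAAA). Its letters gaaagtgaaa lie 234 to 243 bases before the start.
Cxcl10, GRCr8 chr14:15988816-15989065, plus strand: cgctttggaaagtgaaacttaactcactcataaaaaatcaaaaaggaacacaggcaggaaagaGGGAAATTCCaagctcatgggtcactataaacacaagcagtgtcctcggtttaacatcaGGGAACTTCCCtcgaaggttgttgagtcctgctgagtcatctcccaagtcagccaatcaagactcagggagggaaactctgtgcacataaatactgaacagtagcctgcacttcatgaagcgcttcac
The interferon-stimulated response element was found in 3.41% of all windows. The AP-1 motif TGANTCA matched in Ccl7 and Cxcl10 (6.34% of all windows), the C/EBP motif TTNNGCAA in Cxcl2 and Il6 (9.22%), and the TATA box letters TATAAA in Ccl7 and Cxcl10 (12.9%). A match describes letters only.

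Ccl2 and Ccl7 encode monocyte chemoattractant proteins, which call monocytes through the receptor Ccr2. The Ccl2 probe (rn4 chromosome 10, 70257919 to 70257978) is printed in 10 spots on each array. Its level was 8.08, 8.22, 8.28 and 7.82 on NC arrays 1 to 4 and 7.44, 6.89, 7.38 and 5.73 on siRNA arrays 1 to 4. Every siRNA array lay below every NC array, and siRNA replicate 4 lay farthest down. Ccl2 fell by 1.24 ± 0.36 (SE; limma adjusted p = 0.0183, n = 4 per group), a 2.36-fold lower level. The spots of 1 array differed by an SD of 0.04 to 0.11 on the log2 scale, against an SD of 0.21 between NC arrays and 0.80 between siRNA arrays, so the spread between siRNA arrays was larger than that between spots.

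Ccl7 had 2 overlapping probes on rn4 chromosome 10, from 70268674 to 70268733 and from 70268643 to 70268702, 10665 bases from the Ccl2 probe. The brighter one read 6.19, 6.19, 6.29 and 5.87 on the NC arrays and 5.51, 4.94, 5.38 and 3.95 on the siRNA arrays. It fell by 1.19 ± 0.32 (SE, limma adjusted p = 0.0131), and the other probe by 1.11 ± 0.33 (SE, adjusted p = 0.0186), with no overlap of the groups at either probe. The order of the arrays was the same as for Ccl2, except that NC arrays 1 and 2 were level. Scaled to the spike-in controls, Ccl2 stood at -0.73 (adjusted p = 0.0973) and the brighter Ccl7 probe at -0.68 (adjusted p = 0.0895), and neither was called. Normexp background correction, with -0.92 (adjusted p = 0.145) and -0.91 (adjusted p = 0.122), gave no call either. The other Ccl7 probe was also not called with spike-in scaling (-0.60, adjusted p = 0.131) or normexp (-0.78, adjusted p = 0.166). It lost its call with median scaling as well (-0.80, adjusted p = 0.0519).

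Ccl5, or RANTES, draws T cells and monocytes. Its probe and that of Il6 are shown because each reads a spliced messenger: their 60 bases lie over 2930 bases of rn4 chromosome 10 (71606089 to 71609018) and 1285 bases of rn4 chromosome 4 (457279 to 458563), both on the minus strand.
Ccl5: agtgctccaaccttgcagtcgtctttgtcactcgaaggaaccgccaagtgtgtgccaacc
Il6: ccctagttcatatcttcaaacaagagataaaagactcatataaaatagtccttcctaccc
Ccl5 levels were 1.68, 1.96, 2.25 and 1.29 in NC and 0.31, -0.47, 0.28 and -0.63 in siRNA cells. The groups were separated by 0.98 between the lowest NC and the highest siRNA array, the widest gap of the 10 genes. The fall of 1.92 ± 0.28 (SE, limma adjusted p = 0.000666), or 3.80-fold, kept its call in all 20 alternative settings tried.

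Ccl20 attracts Th17 cells and dendritic cells through Ccr6. Its probe (rn4 chromosome 9, 82443347 to 82443406) read 5.32, 5.55, 5.59 and 4.45 in NC and 5.65, 4.83, 5.32 and 2.97 in siRNA cells. Only siRNA replicate 4 lay below all NC arrays, and siRNA replicate 1 lay above all of them. The difference of -0.54 ± 0.58 (SE) did not pass the test (limma adjusted p = 0.444), and without siRNA replicate 4 it was 0.04 (adjusted p = 0.927).

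Cxcl1 and Cxcl2 are among the rat chemokines that bring in neutrophils through Cxcr2. The Cxcl1 probe (rn4 chromosome 14, 18690468 to 18690527) read 8.48, 8.65, 8.76 and 8.09 on NC arrays and 8.07, 7.25, 7.82 and 5.71 on siRNA arrays. The groups were apart by only 0.02, between NC replicate 4 and siRNA replicate 1. The fall of 1.28 ± 0.48 (SE) was the least certain of the 8 calls (limma adjusted p = 0.0489). It was not called with median, quantile or spike-in scaling, with normexp or with no filter on dim probes (-0.98, -1.22, -0.77, -0.93 and -1.28; adjusted p = 0.0979, 0.0567, 0.167, 0.199 and 0.0731). It was not called either when NC replicate 1, 2, 3 or 4 or siRNA replicate 2 was left out (adjusted p from 0.0567 to 0.102), and with siRNA replicate 4 left out it was -0.78 and called (adjusted p = 0.0239).

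The Cxcl2 probe lies 13173 bases away (rn4 chromosome 14, 18677236 to 18677295). Its level was 4.49, 5.26, 6.34 and 3.76 in NC and 3.89, 2.29, 3.53 and 0.58 in siRNA cells. These ranges overlapped, since siRNA replicate 1 lay above NC replicate 4, and its SD was 1.10 between NC and 1.495 between siRNA arrays, the largest of the 10 genes. Cxcl2 had the largest difference as well, a fall of 2.39 ± 0.82 (SE, limma adjusted p = 0.0339), 5.25-fold. The call was lost without NC replicate 2 (adjusted p = 0.0714), NC replicate 3 (0.0797), siRNA replicate 2 (0.0723) or siRNA replicate 4 (-1.73, adjusted p = 0.0561). It was also lost with normexp (-2.09, adjusted p = 0.105) and with no filter on dim probes (adjusted p = 0.0520).

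Cxcl10 binds Cxcr3 on activated T cells and is known as an interferon-induced chemokine. Its probe (rn4 chromosome 14, 17267994 to 17268053) read 6.10, 6.26, 6.27 and 5.99 in NC and 5.33, 5.13, 5.70 and 4.97 in siRNA cells. No arrays overlapped, and the NC arrays lay within 0.28 of each other. Cxcl10 fell by 0.87 ± 0.16 (SE, limma adjusted p = 0.00174), 1.83-fold, the only called member below 2-fold, and was not called with spike-in scaling (-0.37, adjusted p = 0.0890) or normexp (-0.53, adjusted p = 0.212). With median scaling it was -0.57 and called (adjusted p = 0.00831).

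Il6 encodes a cytokine that induces the acute phase response of hepatocytes. Its 10 spots per array gave levels of -1.76, -1.31, -0.89 and -2.25 in NC and -2.65, -3.81, -3.08 and -4.64 in siRNA cells. The groups did not overlap. All 4 NC arrays but only 3 of 4 siRNA arrays were well above background, replicate 4 being the exception. Il6 fell by 1.996 ± 0.46 (SE, limma adjusted p = 0.00644), 3.99-fold, and was called in each of the 19 alternatives that tested it. Its size was smaller with normexp background correction (-1.18, or -0.96 without spots dimmer than their local background). Spots of 1 array differed by an SD of 0.02 to 0.45, less than the SD between arrays of 0.59 in NC and 0.87 in siRNA cells.

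Lif, the leukemia inhibitory factor, signals through the gp130 receptor chain that Il6 also uses. Its probe (rn4 chromosome 14, 84890560 to 84890619) read -1.36, -1.03, -0.63 and -1.66 in NC and -2.12, -2.52, -2.37 and -2.66 in siRNA cells, with all 8 arrays above background and no overlap. Lif fell by 1.24 ± 0.22 (SE, limma adjusted p = 0.00182), 2.37-fold, and was called in all 20 alternatives, with a smaller size under spike-in scaling (-0.73) and normexp once the spots below local background were dropped (-0.75). It was the only gene of the 10 whose SD was smaller between siRNA arrays (0.23) than between NC arrays (0.44).

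Csf1, the growth factor of monocytes and macrophages, was measured by 2 probes on rn4 chromosome 2, at 203292743 to 203292773 (the stretch of the probe placed on the genome) and 203292994 to 203293053. The brighter probe read 4.32, 4.48, 4.51 and 4.09 in NC and 4.62, 4.18, 4.43 and 3.90 in siRNA cells. Its groups overlapped and the difference was -0.07 ± 0.17 (SE, limma adjusted p = 0.736). The other probe gave -0.36 ± 0.19 (SE, adjusted p = 0.124). With spike-in scaling both turned positive, to 0.44 and 0.15, and the second was called lower with quantile normalization (-0.47, adjusted p = 0.0478), with cyclic loess (-0.48, adjusted p = 0.0434) and without siRNA replicate 1 (-0.49, adjusted p = 0.0458). Without siRNA replicate 4 the second stood at -0.21 (adjusted p = 0.2505).

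**Figure D1:**
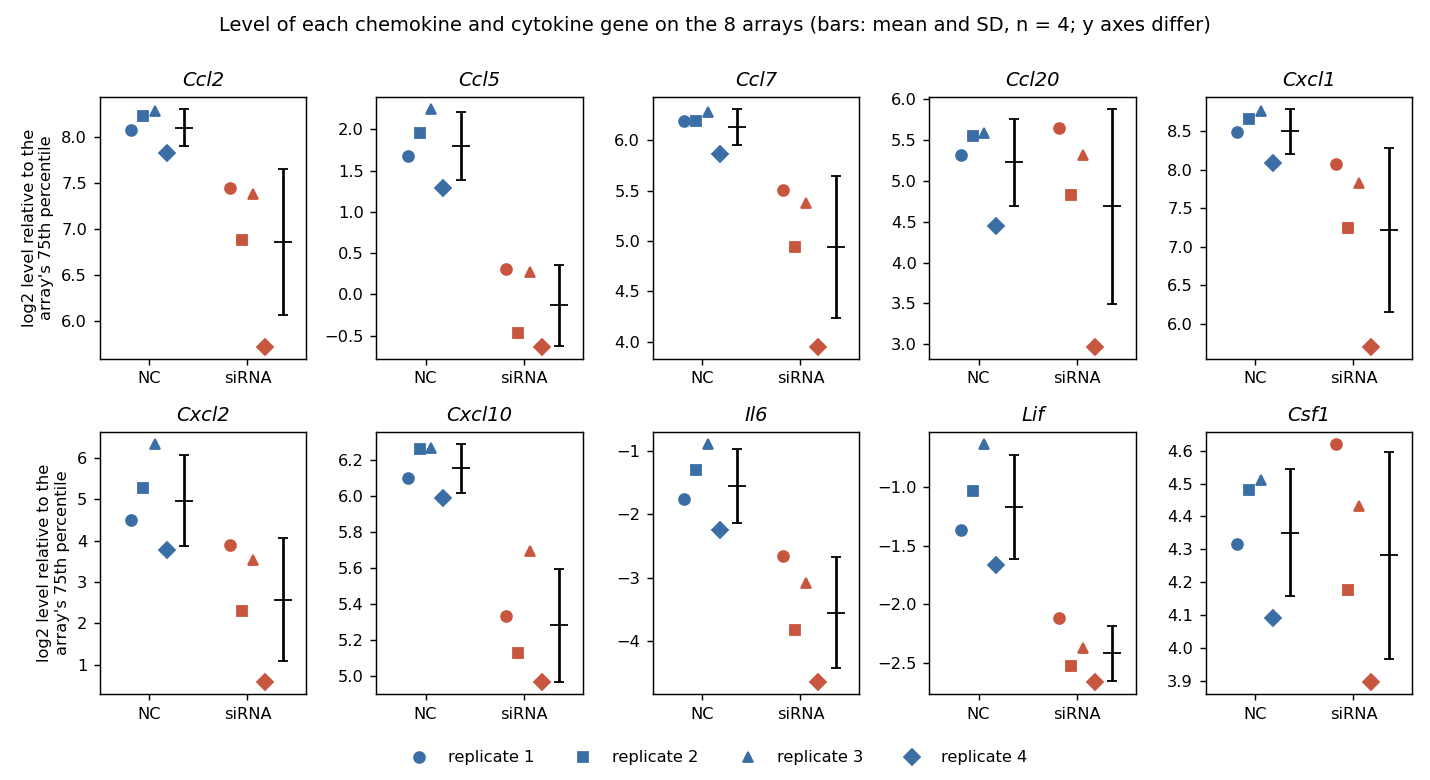
Log2 level of the brightest probe of each of the 10 genes on the 8 arrays (y axis, relative to the array's 75th percentile; each panel has its own scale), by group, with a symbol for each replicate number and the mean and SD (n = 4) as a bar. In every panel replicate 4 is the lowest array of both groups and replicate 3 the highest NC array, and the groups overlap only in Ccl20, Cxcl2 and Csf1.

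**Figure D2:**
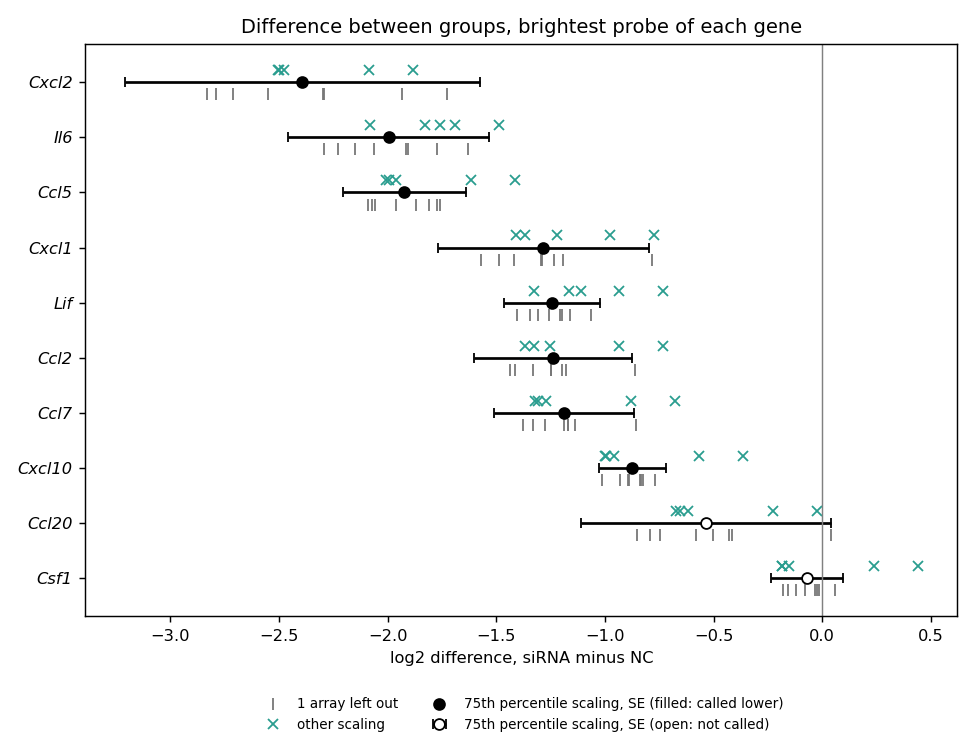
Log2 difference between siRNA and NC cells (x axis) for the brightest probe of each gene, with its SE, under the 75th percentile scaling (circles, filled where limma called it), with 1 array left out (ticks) and under 5 other scalings (crosses). The 8 called genes lie between -2.39 and -0.87 and stay below 0 in every setting drawn, while Csf1 and Ccl20 cross it.

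The arrays took nearly the same order for all members. NC replicate 4 was the lowest NC array and siRNA replicate 4 the lowest siRNA array at 12 of 12 probes, NC replicate 3 was the highest NC array at 12 of 12, and siRNA replicate 1 the highest siRNA array at 11 of 12, with Cxcl10 as the exception. Of all tested genes, 8.61% were lowest on replicate 4 of both groups and highest on NC replicate 3. In the lists of related genes described below the share was higher. It was 33.3% of other chemokine ligands, 31.8% of other cytokines, 33.3% of receptors, 32.1% of induction regulators and 20% of the messenger decay list. On siRNA replicate 4 the members lay 0.24 to 1.99 below their group mean, with a median of -1.04, while the median of all tested genes on that array was -0.03. On NC replicate 4 the median of the members was -0.45, and on NC replicate 3 it was 0.31. Thus the members' spread was wide. The SD between siRNA arrays exceeded 0.32, the 90th percentile of all tested genes, in 7 of 10 members, and that between NC arrays exceeded its 90th percentile of 0.28 in 6 of 10. What sets the order was not tested. Without replicate 4 of both groups, a setting chosen after the data were seen, again 8 members were lower and 0 higher by limma, and the median difference of the 10 was -0.95.

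**Figure D3:**
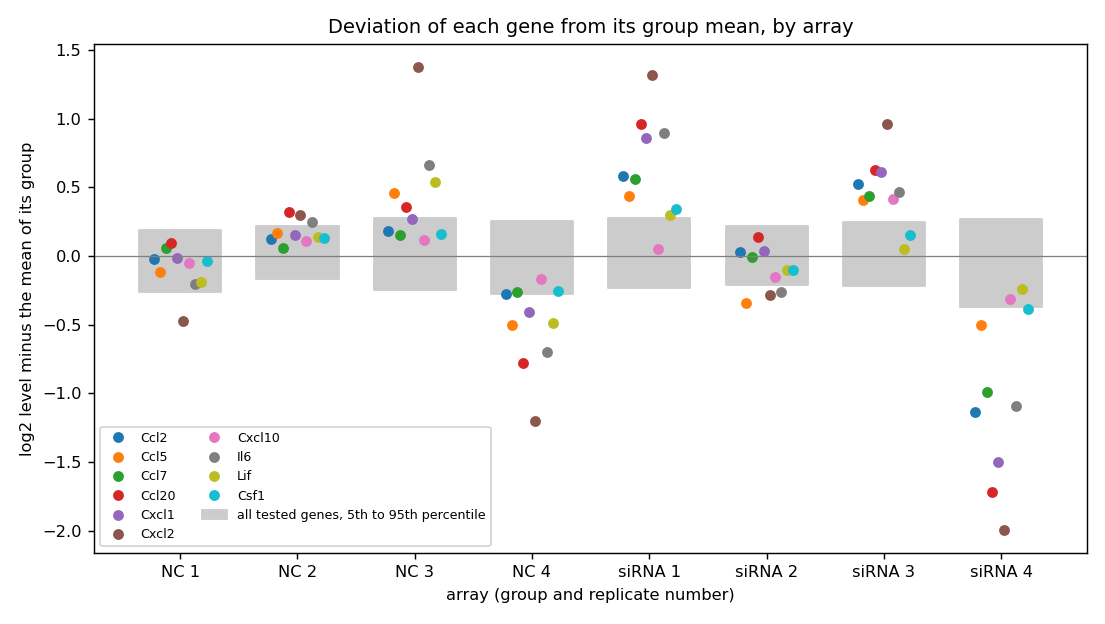
Deviation of each gene's log2 level from the mean of its own group (y axis) on each of the 8 arrays (x axis), with grey boxes for the middle 90% of all tested genes. The points of siRNA replicate 4 reach down to -1.99 and those of NC replicate 3 up to 1.37, both Cxcl2, outside the grey boxes.

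Members sit beside other chemokine genes on the chromosome, in the order of the RefSeq table. On chromosome 10, Ccl2 and Ccl7 are followed by Ccl11, an eosinophil chemokine, which was above background on all 8 arrays and did not pass the test (-0.07 ± 0.17 SE, limma adjusted p = 0.762). In the second group on that chromosome, Ccl5 fell and so did Ccl4, a macrophage inflammatory protein at the far end (by 2.04 ± 0.36 SE, limma adjusted p = 0.00174), and the intervening Ccl9, Ccl6 and Ccl3 were above background on at most 2 arrays each and were not tested. On chromosome 14 the neutrophil chemokine Cxcl3, near Cxcl1, fell by 2.60 ± 0.60 (SE, limma adjusted p = 0.00616), and Pf4 beyond it did not pass (adjusted p = 0.0711). Pf4 was well above background on 3 NC arrays and only 1 siRNA array, so no size is given for it. Cxcl10 lies between Cxcl11 and Cxcl9, both ligands of the same receptor, Cxcr3. Cxcl11 was at least 2.74-fold and Cxcl9 at least 2.29-fold lower (limma adjusted p = 4.57e-05 and 0.00170), since both were well above background on 4 NC arrays and on 0 siRNA arrays. These bounds set the NC mean against the mean, per siRNA array, of either that array's dimmest signal well above background or the probe itself, whichever was higher.

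Of 28 other chemokine ligands, 27 had a probe and 12 were tested: 7 were lower, 1 higher and 4 not called, with a median of -1.495 by fitted values. Besides the neighbours named above, Ccl22, Cx3cl1 and Cxcl12 were the remaining lower ones. Cxcl13, a B cell chemokine, rose by 1.96 ± 0.14 (SE, limma adjusted p = 2.15e-05), from a mean of -1.75 (SD 0.29) on NC arrays to 0.21 (SD 0.11) on siRNA arrays (n = 4 each). Both directions thus occurred among the ligands. The shares over all 10861 tested genes, for this list and those below, were 28.9% lower and 36.1% higher.

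Among 48 other cytokines 40 had a probe and 22 were tested, of which 11 were lower, 6 higher and 5 not called (median -0.85). Of all tested genes 28.9% were lower and 36.1% higher. Ifnb1, the gene of interferon beta, was lower (limma adjusted p = 9.96e-06), with a mean of 0.66 (SD 0.34) on NC arrays and a measured mean of -5.17 (SD 0.73) on siRNA arrays. It was well above background on only 1 of 4 siRNA arrays, so no size is given for its difference. Tslp, an epithelial cytokine, fell by 1.80 ± 0.17 (SE, adjusted p = 7.36e-05). Il18, a cytokine of the interleukin 1 family, rose by 1.08 ± 0.06 (SE, adjusted p = 8.13e-06) and Il17b by 1.11 ± 0.07 (adjusted p = 1.10e-05). Tnf, Il1b, Osm and Il11 had a probe and were not tested, because they were well above background on fewer than 3 arrays of each group.

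Most receptors of these ligands did not pass the filter on dim probes. Of 40 receptor genes 37 had a probe and 12 were tested. The tested receptors included 2 higher, 4 lower and 6 not called, with a median of -0.11. Among all tested genes 36.1% were higher and 28.9% lower. Osmr, the oncostatin M receptor, fell by 0.70 ± 0.11 (SE, limma adjusted p = 0.00105) and Il1rl1, the interleukin 33 receptor, by 0.54 ± 0.13 (adjusted p = 0.00816). Il6r changed by -0.31 ± 0.08 (adjusted p = 0.0114), though with spike-in scaling it turned to 0.20, and Tnfrsf1a rose by 0.32 ± 0.05 (adjusted p = 0.00103). Il6st, the shared gp130 chain through which Il6 and Lif signal, did not pass (-0.24 ± 0.14 SE, adjusted p = 0.176).

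A list of 32 names of regulators of chemokine induction held sensors and inducing factors but also inhibitors of NF-kB. In it 2 names stand for the same RNA sensor. Of the 32 names 28 had a probe and all 28 were tested: 20 were lower, 2 higher and 6 not called, with a median of -0.66. The inhibitor genes Nfkbia (-1.09) and Nfkbib (-0.67) were among the lower ones. Some of the lower calls changed sign with the scaling. Rela turned to 0.15 with spike-in scaling, and Myd88 to 0.11 with median and 0.31 with spike-in scaling. Ikbkg, well above background on only 1 siRNA array, turned with quantile normalization and spike-in scaling. Fos fell by 3.18 ± 0.12 (SE, limma adjusted p = 9.70e-07) and Jun, its partner in AP-1, by 1.05 ± 0.10 (adjusted p = 8.51e-05). Ifih1, a sensor of double-stranded RNA, fell by 1.52 ± 0.09 (adjusted p = 8.59e-06), and the interferon regulator Irf7 fell by 1.49 ± 0.14 (adjusted p = 6.65e-05). The 2 higher genes were Tlr3, an endosomal RNA sensor, and Nfkbie, another inhibitor of NF-kB. Of 10 genes on the list for messenger decay 4 were higher, 3 lower and 3 not called. For both lists the shares over all tested genes were 36.1% higher and 28.9% lower. Rc3h1, which encodes roquin, fell by 0.86 ± 0.08 (adjusted p = 7.75e-05) and Zfp36, whose protein tristetraprolin destabilises cytokine messengers, by 0.70 ± 0.14 (adjusted p = 0.00292). Tnpo1 rose by 0.21 ± 0.04 (adjusted p = 0.00346), but it encodes a nuclear import receptor and not a decay factor. Hnrnpd was 0.60 ± 0.07 (adjusted p = 0.000271), but its sign turned with quantile normalization (-0.03).

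**Figure D4:**
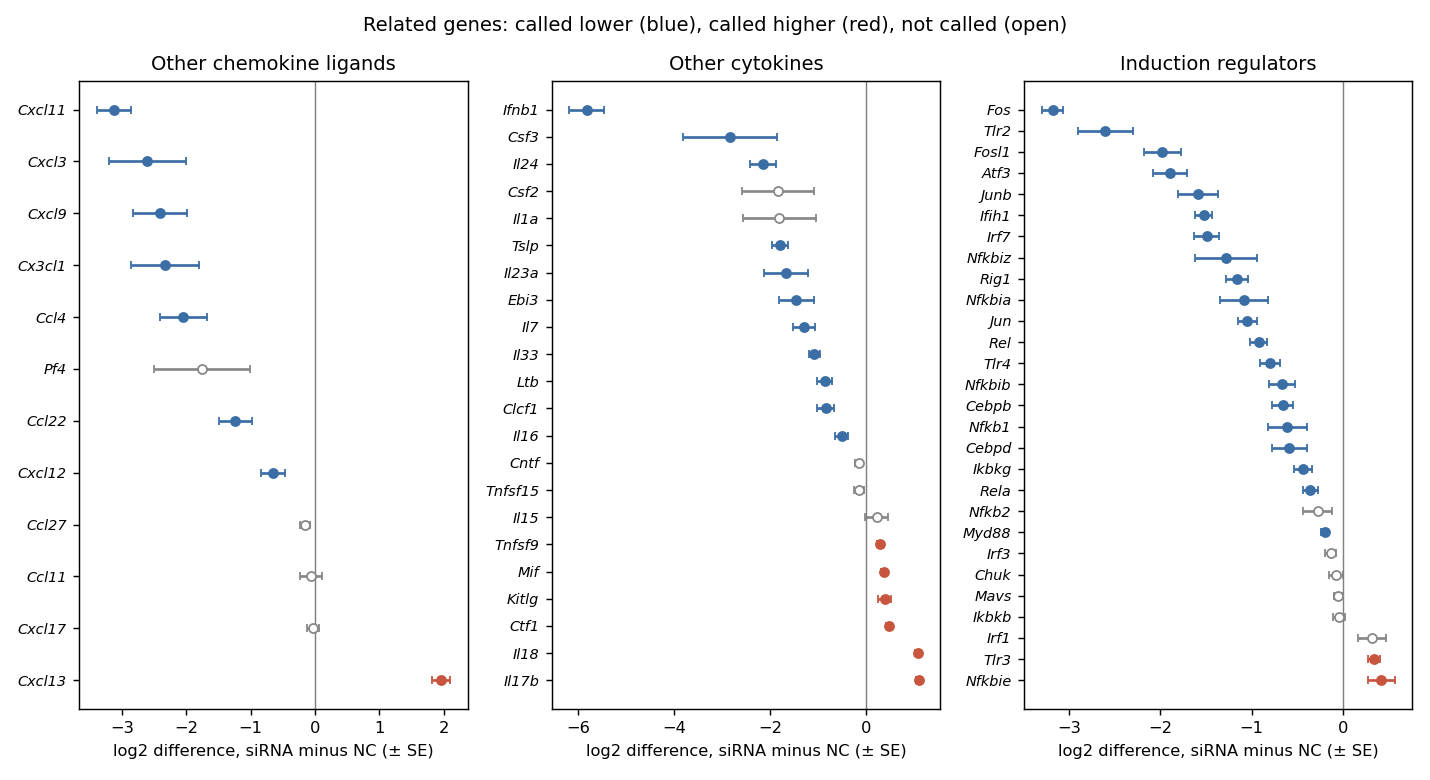
Log2 difference between siRNA and NC cells with its SE (x axis) for the tested genes of 3 lists of related genes: 12 other chemokine ligands, 22 other cytokines and 28 induction regulators. Most points of each panel lie below 0, and Cxcl13 lies at 1.96. Fitted values are drawn throughout. Ifnb1, Il23a, Ebi3, Pf4 and Ikbkg were each above background on only 1 siRNA array and Cxcl9 and Cxcl11 on 0, so that their positions carry no size.

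Leukocytes are another main source of these proteins in liver. Of 17 leukocyte and macrophage markers 7 were tested, of which 5 were lower, 0 higher and 2 not called by limma, namely Cd14 (0.20, adjusted p = 0.0586) and Ms4a1 (-0.59, adjusted p = 0.455). Of all tested genes 28.9% were lower and 36.1% higher. Cd68 fell by 2.39 ± 0.09 (SE, adjusted p = 1.07e-06), and Nkg7, well above background on 0 siRNA arrays, was at least 19.1-fold lower (adjusted p = 2.52e-07). The summed level of all 17, in multiples of the array's 75th percentile, was 8.26 to 9.62 on NC and 6.29 to 7.15 on siRNA arrays. In this sum bright markers weigh most. Cd14, which was not called, was the brightest tested marker, with a mean of 2.19 on NC and 2.39 on siRNA arrays. The sum was not taken again under median or spike-in scaling, which moved the median of all genes by 0.31 and 0.51. The defining markers Adgre1, Cd163, Cd4 and Cd8a were above background on no array, and Ptprc, Itgam, Lyz2, Csf1r and Cd3e did not reach 3 arrays of either group. Of the other marker lists, hepatocyte markers had 2 higher and 1 lower of 3 tested, fibroblast and stellate cell markers 3 higher and 1 lower of 7, and endothelial markers 3 higher and 2 lower of 5. The part of these markers in the result was not tested.

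Likeness was measured as the root mean square difference between 2 genes over the 8 arrays, each gene centred on its NC mean, among 9532 genes above background on all arrays. Nearest to Ccl2 were Nfkbiz (0.06) and Ccl7 (0.08), and nearest to Ccl7 were Ccl2 and Nfkbiz. Cxcl1 was also closest to Ccl2 (0.18) and Nfkbiz (0.21). Ccl5 was closest to Slpi (0.17) and Birc3 (0.18), Cxcl10 to Ifi27l2b (0.10), Lif to Ttc39b (0.12) and Csf1 to Rab32 (0.07). The closest genes to Cxcl2 and Ccl20 were Plet1 at 0.29 and Cd69 at 0.40. This measure grows with the spread of a gene, which was wide for Cxcl2 and Ccl20, so distances are not compared between members. Nfkbiz itself fell by 1.28 ± 0.34 (SE, limma adjusted p = 0.0122).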

How the data were processed

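Per the file headers, spot intensities were read with Agilent Feature Extraction 12.0.3.1 (12.0 in the submitters' processing notes), background-subtracted and detrended within an array, with no scaling between arrays; the deposited files also hold the mean and local background intensity. The authors' deposited log2 table covers 86 probes, of which 0 were probes of these genes, so it gave no value. Control spots and outlier spots (129 to 174 per array) were left out, and 0 spots were saturated. The 75th percentile of each array's log2 processed intensity was subtracted, and spots of a probe were averaged. Probes well above background on at least 3 of 4 arrays of a group were tested in a two-sided linear model (lmFit, eBayes; limma 3.58.1, R 4.3.3), with Benjamini-Hochberg adjustment over all of them. The fit was also run on simulated data with independent noise for each probe. That run does not cover deviations that genes share on an array, or the slide that coincides with the group. A gene is represented by its brightest tested probe. Symbols came from accessions through the RefSeq table of GRCr8 (18028 probes), current symbols (3168), older symbols (400) or the file (126), and 19290 probes stayed unnamed. Positions of probes on rn4 come from the array's design. The named genes are the 10 members and, of each list, those among up to 4 called genes with the smallest adjusted p. For likeness they are the nearest 1 or 2 genes of each member. Cd14, Ms4a1, Ccl11, Ccl22, Cx3cl1, Cxcl12, Pf4, Cxcl3, Il23a, Ebi3, Il6st, Tlr3, Nfkbia, Nfkbib, Nfkbie, Nfkbiz, Ikbkg and the untested genes were named after their values were seen. So were Rela and Myd88. Members and lists were chosen with earlier results of these data known. Other scalings, normexp background correction, filters, variance settings, a replicate block and leaving out arrays were tried.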

Additional observations from a re-analysis of the deposited data

Results flagged for a closer look

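None of the 10 genes had an array set apart from the other 3 of its group by Dixon's criterion, the gap to the nearest array as a share of the group's range. Of 94 group sets tested in all, 24 of them sets of member probes, 5 were beyond it. Each of the 5 belonged to a related or marker gene named by the same rule, and chance marks about 1 in 20. Cxcl13 was marked on siRNA replicate 1 (0.849 of the range), Apoa1 on siRNA replicate 4 (0.965), Eng on siRNA replicate 4 (0.967), Pdgfrb on NC replicate 3 (0.904) and Dcn on NC replicate 4 (0.931). Apoa1 was well above background on only 1 siRNA array, so its mark rests on values near the floor.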

How the results depend on the processing

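The count of 8 lower and 0 higher members by limma was 6 to 8 with each of the 8 arrays left out in turn and 6 to 8 under the other settings, apart from spike-in scaling, with 4 lower members, and normexp background correction, with 3. Normexp also moved the probes called from 15327 to 3763; without spots dimmer than their local background (0 to 10 per array), a setting added after the data were seen, it gave 15664 and 8 lower members. Probes called numbered 13103 to 15071 with 1 array left out. The split of 7389 higher and 7938 lower probes was 12991 against 4212 after median scaling and 15322 against 2709 after spike-in scaling. These moved the median of all genes by 0.31 and 0.51. All 3 scalings subtract 1 value per array, so the members' median had to lie 1.29 below that of all genes under each. Settings that can move this difference gave -1.28 (quantile normalization), -1.35 (cyclic loess) and -0.92 (normexp). Signs turned for the brighter Csf1 probe with median scaling (0.24), spike-in scaling (0.44), normexp (0.14) and without siRNA replicate 4 (0.0591), for the other Csf1 probe with spike-in scaling (0.15) and for Ccl20 without siRNA replicate 4 (0.0384). With each array left out in turn, Ccl20 ranged from -0.855 to 0.0384 and the brighter Csf1 probe from -0.183 to 0.0591. Not every pair of same-numbered arrays deviated together over all probes (correlations from -0.03 to 0.21; 2 of 8 arrays correlated best with their own number), so the samples were not treated as paired, although 21.7% of all tested genes were lowest on replicate 4 of both groups. With the number as a replicate block, 14985 probes were called, 8 members were lower and 0 higher. The authors' table was not run as an alternative, since it holds 0 probes of these genes. The causes were not tested. Precision is limited for Il6, close to background on the siRNA arrays.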
